A study of Mus musculus with 2 samples.

Results

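Cytosolic ribosomal protein genes were described in 2 long-read RNA libraries of mouse heart. They were chosen by gene name alone: every annotated gene named Rpl or Rps followed by a number, with or without the letters a, x, y or l, together with Rpsa and the stalk genes Rplp0, Rplp1 and Rplp2. Names with -ps, a mark for pseudogenes, were left out, though some of them, such as Rpl10-ps3 and Rpl9-ps6, are annotated as protein-coding. The 79 genes described here had reads in both libraries, out of 15410 annotated genes with reads. They comprised 47 large-subunit and 32 small-subunit names. The label held for all but 1 member by annotation, since Rps4l is annotated as a transcribed processed pseudogene.

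A cytosolic ribosome holds 1 copy of nearly every ribosomal protein, so these proteins are made in matched amounts, and proteins made in excess are degraded. The messenger RNAs are short, abundant and stable, and their translation is governed as a group through a tract of pyrimidines at the first base, which LARP1 binds downstream of the kinase mTOR. Heart and skeletal muscle are known for exchanging RPL3 for its muscle paralog RPL3L. Mammalian genomes also carry many processed copies of these genes, and several of their introns encode small nucleolar RNAs that guide modification of ribosomal RNA.

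The tissue was heart of male adult B6CASTF1/J mice, first-generation hybrids of a C57BL/6J and a CAST/EiJ parent, aged 18 to 20 months, with no treatment. Both libraries, replicate 2 and replicate 1, were made from 2 µg of RNA. They are labelled as separate biological replicates, carry separate biosample entries but the same donor identifier, and both descriptions name the same pair of tissue identifiers, so the labels do not settle that they came from separate animals. There is 1 group and no contrast between conditions. Tests between the libraries take reads as independent and weigh a difference against counting error alone, so the p-values measure only how far these 2 samples lie apart, which may be technical.

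Replicate 2 held 1003999 mouse reads and replicate 1 held 688861, and 0 reads allow up to 2.99 CPM in replicate 2, against 4.36 CPM in replicate 1. CPM is reads per 1e6 mouse reads, spike-ins left out. A long read stands for 1 molecule, so CPM was not divided by transcript length. Intervals for shares were computed by the exact Clopper-Pearson method at 95%, and they leave out any error but that of counting. Cardiomyocyte markers summed to 38567 CPM in replicate 2, against 37293 CPM in replicate 1. Single markers moved both ways, as 4 of the 8 were higher and 4 lower in replicate 2. Pln stood at 12673 CPM in replicate 2, against 9370.5 CPM in replicate 1. Myh6 stood at 15406 CPM in replicate 2, against 16996 CPM in replicate 1. Of 5 skeletal muscle markers (Myh1, Myh2, Myh4, Actn3, Mylpf), 0 had a read in either library. As a ratio of sums, adipocyte markers differed most between the libraries, at 37.8 CPM in replicate 2, against 244 CPM in replicate 1. Most of both sums was Car3, at 28.9 CPM in replicate 2, against 192 CPM in replicate 1. Adipoq had 2 reads in replicate 2 and 5 in replicate 1. Fibroblast markers stood at 579 CPM in replicate 2, against 764 CPM in replicate 1, and erythroid markers at 6996 CPM in replicate 2, against 7684 CPM in replicate 1. The part of these differences in the results below was not tested.

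The annotated start sites of the genes are shown first, because the pyrimidine tract at the start is what marks this class of messenger RNA. RefSeq promoter entries (GRCm38.p6) were present for 59 of the 79 genes. The 30 bases printed run from 10 before the annotated first base to 19 after it, 5′ to 3′ on the transcribed strand, and the annotated first base is letter 11. Capitals mark a C that lies within 10 bases of the first base and is followed by at least 4 bases that are each C or T, with the whole run.
Rpl27a (chr7:109519185-109519214, plus strand): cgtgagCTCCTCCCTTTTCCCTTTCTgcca
Rpl35 (chr2:39005112-39005141, minus strand): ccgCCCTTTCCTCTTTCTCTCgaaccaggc
Rpl15 (chr14:18270967-18270996, minus strand): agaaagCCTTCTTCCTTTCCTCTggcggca
Rpl7a (chr2:26910797-26910826, plus strand): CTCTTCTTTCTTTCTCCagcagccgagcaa
Rps6 (chr4:86857348-86857377, minus strand): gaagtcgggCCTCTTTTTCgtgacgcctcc
Rpl38 (chr11:114668570-114668599, plus strand): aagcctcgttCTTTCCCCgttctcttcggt
Rps15a (chr7:118116128-118116157, minus strand): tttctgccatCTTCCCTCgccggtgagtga
Rpl3l (chr17:24727816-24727845, plus strand): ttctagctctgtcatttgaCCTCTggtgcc
Rplp0 (chr5:115559457-115559486, plus strand): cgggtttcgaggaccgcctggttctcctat
Rpl41 (chr10:128549149-128549178, minus strand): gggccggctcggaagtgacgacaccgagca
Rpl27a, Rpl35, Rpl15 and Rpl7a hold the longest runs, of 20, 18, 17 and 17 bases. In Rpl38 and Rps15a the run starts at the annotated first base, and Rpl35, Rpl15 and Rps6 also have a C there that is followed by at least 4 pyrimidines. Rpl3l has a run of 5 bases that starts 9 bases after its first base. The abundant Rplp0 and Rpl41 have no such run that starts within 10 bases of the first base. In Rplp0 a run of this kind lies farther on in the printed bases and is left in small letters.

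Such a tract lay within 10 bases of the annotated start in 36 of the 59 genes (61.0%), against 9297 of all 27025 genes of the promoter table (34.4%). Among 10866 other genes with reads it was 4043 (37.2%). With the C exactly at the first base the counts were 13 of 59 (22.0%) and 813 of 27025 (3.01%), and 326 of the 10866 other genes with reads (3.00%). A gene with several entries was counted once if any entry matched, and only the transcribed strand was read. The share was 65.2% of 23 small-subunit genes and 58.3% of 36 large-subunit genes. A window without a match says only that these letters are absent around the start as annotated.

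Together the 79 genes took 17836 reads in replicate 2 and 11969 reads in replicate 1, which is 1.78% of mouse reads in replicate 2 (95% interval 1.75 to 1.80) and 1.74% in replicate 1 (1.71 to 1.77). Their summed level was 17570 ± 276 CPM (SD, n = 2), of which 11060 ± 124 CPM came from large-subunit and 6510 ± 151 CPM from small-subunit genes. The median gene stood at 206 CPM, and the median at the large subunit (212 CPM) was close to that at the small subunit (196 CPM). The median gene sat at percentile 92.2 of annotated genes with at least 10 reads in replicate 2 and at percentile 92 in replicate 1.

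**Figure D1:**
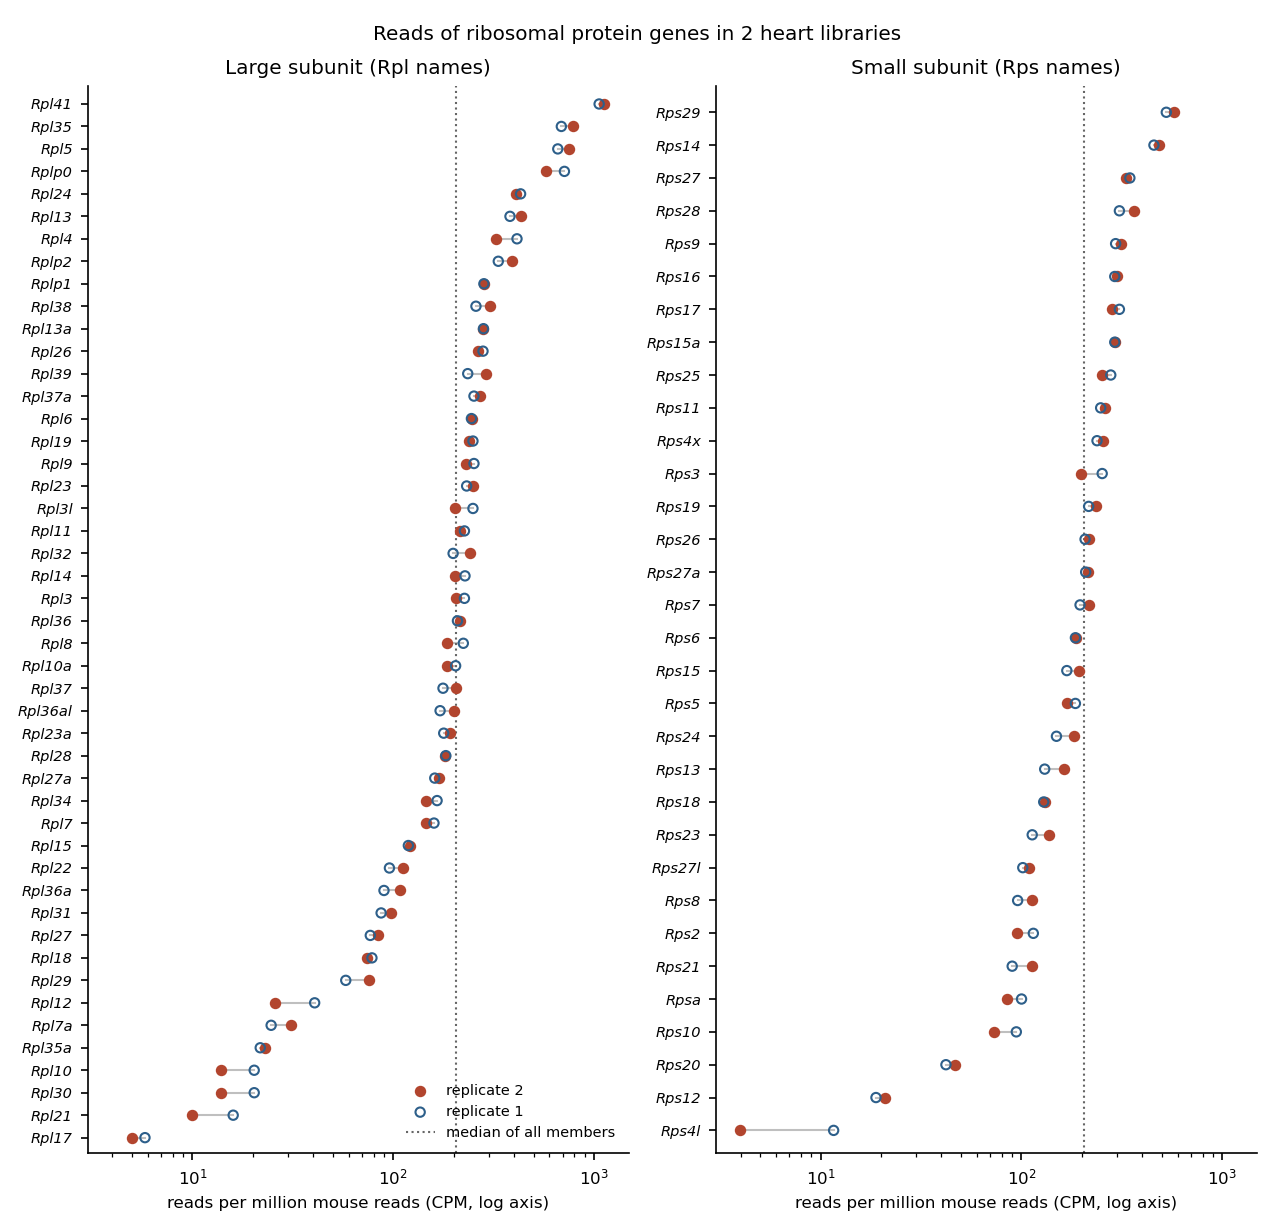
CPM (log axis) of each of the 79 genes, with large-subunit names in the left panel and small-subunit names in the right. Filled points are replicate 2, open points replicate 1, and the dotted line is the median gene at 206 CPM. Rpl41 stands farthest to the right, and a tail of genes from Rpl12 down to Rpl17 and from Rps20 down to Rps4l lies well left of the median.

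The genes of a complex that is built in equal parts did not have equal reads. The highest of these 79 genes had 203 times the level of the lowest, and 54 of 79 lay within 2-fold of the median. The quartiles were 105 and 269 CPM.

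The 10 highest of these 79 genes were led by Rpl41, which encodes the smallest ribosomal protein, with 1129 reads in replicate 2 and 731 in replicate 1, or 1125 CPM in replicate 2, against 1061 CPM in replicate 1. Rpl35 had 789 CPM in replicate 2, against 688 CPM in replicate 1. Both belong to the large subunit, and Rpl41 lay above Rpl35 in both libraries. Rpl5, which carries 5S ribosomal RNA into the large subunit, had 748 CPM in replicate 2, against 661 CPM in replicate 1, nearly all of it on a short transcript that is described with the models. Rplp0, the base of the stalk, had 580 CPM in replicate 2, against 713 CPM in replicate 1. Rps29 was the first small-subunit gene, at 579 CPM in replicate 2, against 527 CPM in replicate 1. Rps14, Rpl24, Rpl13, Rpl4 and Rplp2 completed the 10, with means between 363 and 472 CPM. Of these 10, Rplp0 alone differed between the libraries beyond counting error, as given below.

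The stalk, which recruits elongation factors to the ribosome, is built from RPLP0 and dimers of RPLP1 and RPLP2, so that RPLP1 and RPLP2 are present in more copies than RPLP0. Among the messenger RNAs Rplp0 was the highest, at 646 ± 94.1 CPM, while Rplp2 averaged 363 ± 40.7 CPM and Rplp1 284 ± 1.26 CPM (SD, n = 2).

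The 10 lowest genes were Rpl17, Rps4l, Rpl21, Rpl30, Rpl10, Rps12, Rpl35a, Rpl7a, Rpl12 and Rps20. Rpl17, a protein at the rim of the exit tunnel, had 5 reads in replicate 2 and 4 in replicate 1. Rpl21 had 10 reads in replicate 2 and 11 in replicate 1. Rpl10 and Rpl30 each had 14 reads in both libraries. RPL10 is needed for the last step of large-subunit maturation, and all 10 but Rps4l encode standard parts of the ribosome. The other 5, Rps12, Rpl35a, Rpl7a, Rpl12 and Rps20, had 21 to 47 reads in replicate 2 and 13 to 29 in replicate 1.

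Most of these low genes had more reads on near-identical copies than on the gene itself. Copies were annotated pseudogenes, or genes with an Rpl or Rps name, whose transcript was at least 90% identical to the member's along 50% or more of the shorter of both. Genes of other types and names that met the same limits were not counted. Among them, BC004004 (similar to Rpl21) had 388 reads in replicate 2 and 229 in replicate 1. Gm10076 (similar to Rpl41) had 76 in replicate 2 and 67 in replicate 1. In all, 162 copies of 69 members had reads, and they took 4825 reads in replicate 2 and 3045 in replicate 1, or 21.3% of the reads of members and copies together in replicate 2 and 20.3% in replicate 1. Whether such a read was transcribed from the copy or from the parent gene was not tested, so the counts of these genes are uncertain.

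For Rpl21 the copies held 97.0% of the joint reads in replicate 2 and 95.2% in replicate 1. For Rpl17 the share was 94.2% in replicate 2 and 92.2% in replicate 1, and for Rpl35a 93.0% in replicate 2 and 93.5% in replicate 1. For Rpl10 it was 88.9% in replicate 2 and 84.1% in replicate 1, so in both libraries these genes had the smaller part of the joint reads. With the copies added, Rpl21 and Rpl35a both stood at 330 CPM, above the median gene. Rpl10 then reached 127 CPM and Rpl17 79.8 CPM. In 13 members the copies had more reads than the gene in both libraries. The low levels of Rps20 (44.5 CPM with copies), Rpl12 (50 CPM) and Rps12 (37.9 CPM) remained.

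Copies also took many reads of well-expressed members. Gm15500, a transcribed processed pseudogene on chromosome 7 (114705217 to 114706235) that aligned to Rpl5 at 100% identity, had 579 reads in replicate 2 and 322 in replicate 1. Gm14303, on chromosome 2 and identical to Rps29 where aligned, had 511 reads in replicate 2 and 314 in replicate 1. Rps19-ps6 had 341 reads in replicate 2 and 157 in replicate 1, more than Rps19 itself, which had 236 in replicate 2 and 149 in replicate 1. Adding all copies narrowed the spread: the 90th percentile member stood at 5.18 times the 10th with copies, against 11.7 times without them, and 58 members lay within 2-fold of the median, which became 254 CPM. The choice of this alternative was made after the low genes had been seen.

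**Figure D2:**
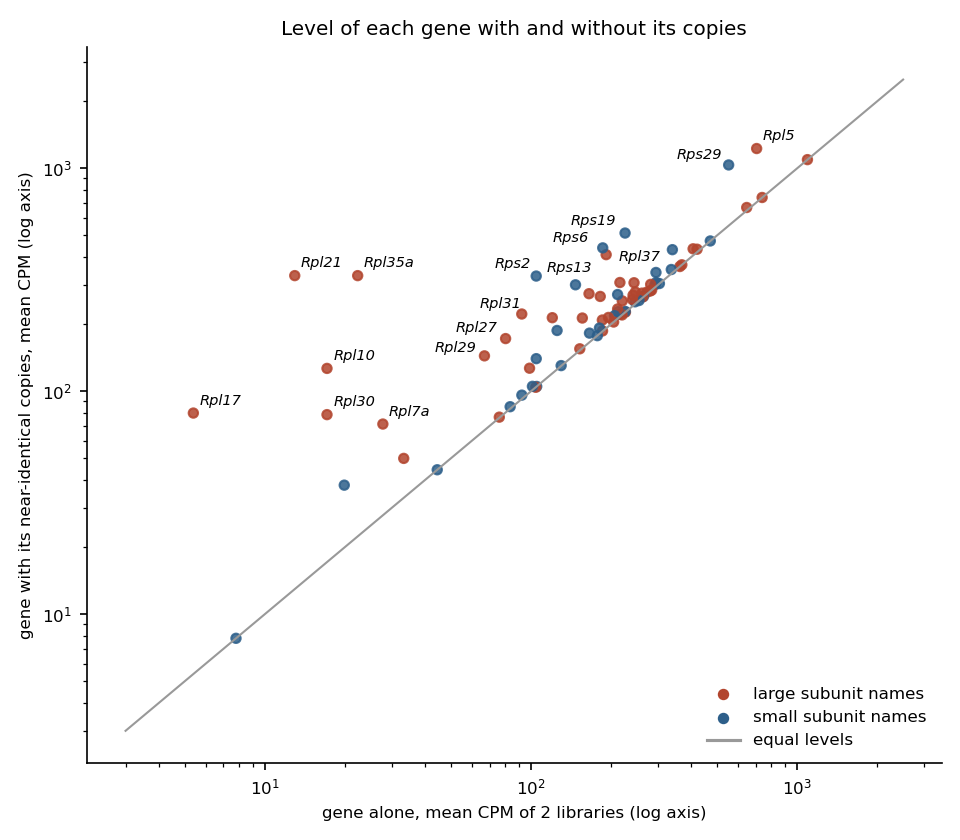
Mean CPM of the 2 libraries for each gene alone (x axis, log) against the same gene with the reads of its near-identical copies added (y axis, log). Points on or near the line have few or no copy reads. Rpl21, Rpl35a, Rpl10, Rpl30 and Rpl17 lie far above it, while the rightmost point, Rpl41, lies almost on it.

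Reads fell into 4 classes of model. Known models carry the introns of an annotated transcript, and new spliced models have introns or combinations outside the annotation. Incomplete models carry a consecutive part of the introns of a longer model, which can itself be new. Some incomplete models, such as one of Rpl39 given below, have 1 exon and so no intron. Genomic models are those the files class as genomic. The genomic member models with at least 2 reads in each library all had 1 exon, and the one with most reads, 54 bases of Rps27a with 34 reads in replicate 2 and 21 in replicate 1, lay inside the last annotated exon, so the class is no measure of intron sequence. Member reads were 91.9% known in replicate 2 (95% interval 91.5 to 92.3) and 92.1% known in replicate 1 (91.6 to 92.6). Incomplete models held 5.74% in replicate 2 (5.40 to 6.09) and 5.67% in replicate 1 (5.27 to 6.10). Genomic models held 0.936% in replicate 2 (0.80 to 1.09) and 0.568% in replicate 1 (0.441 to 0.720), and new spliced models 1.44% in replicate 2 (1.27 to 1.63) and 1.62% in replicate 1 (1.40 to 1.86), so both were rare. All other annotated genes had 72.2% known reads in replicate 2 and 74.7% in replicate 1. Their incomplete share was 14.8% in replicate 2 and 12.5% in replicate 1, their genomic share was 6.52% in replicate 2 and 5.94% in replicate 1, and their new spliced share was 6.49% in replicate 2 and 6.91% in replicate 1. The genomic and new spliced classes thus held smaller shares of ribosomal protein reads than of the reads of all other annotated genes, and the intervals did not overlap in either library. Incomplete models with a new splice site are left out of the new spliced share, among them 1 of Rps24 with 63 reads in replicate 2 and 24 in replicate 1.

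A known model need not be a coding one. Of known member reads, 93.6% in replicate 2 (95% interval 93.2 to 93.9) and 94.4% in replicate 1 (93.9 to 94.8) were on transcripts annotated as protein-coding, and most of the others belonged to Rpl5. Of its reads, 707 in replicate 2 (94.1%) and 418 in replicate 1 (91.9%) were on Rpl5-204, a transcript of 3 exons annotated as a retained intron. Both introns of Rpl5-204 are also the last introns of the coding transcript Rpl5-201, so a match by introns does not show that a read holds the bases in which they differ. Rpl5-201, with 8 exons, had 28 reads in replicate 2 and 25 in replicate 1, or 27.9 CPM in replicate 2, against 36.3 CPM in replicate 1, far below the median member. Without Rpl5 the share on coding transcripts was 97.8% in replicate 2 and 98.1% in replicate 1, against 97.1% in replicate 2 and 97.6% in replicate 1 for other protein-coding genes. In Rpl22, too, coding transcripts had 0 reads, and all 90 known reads in replicate 2 and 46 in replicate 1 were on Rpl22-205, a processed transcript with the same introns as the coding Rpl22-201. The count by transcript type was added after the Rpl5 models had been seen.

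The incomplete models with most reads in the lower library belonged to Rpl39, Rpl3l, Rps24, Rpl7 and Rps21. Rpl39, a small protein of the exit tunnel, had 167 of 292 reads in replicate 2 (57.2%) and 82 of 162 in replicate 1 (50.6%) on a single-exon model of its last 230 bases. Rpl3l had 50 reads in replicate 2 and 47 in replicate 1 on a model of 9 exons, and Rpl7 had 29 in replicate 2 and 22 in replicate 1 on one of 3 exons. Rps21 had 38 of 113 reads in replicate 2 and 18 of 62 in replicate 1 on a model of its last 2 exons.

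Members used few transcripts. In the 70 members that had more than 1 model and reached 20 reads in each library, the transcript with most reads held a median of 90.5% of reads, against 75.8% in 3868 other genes tested. The top transcript held at least 90% in 37 of 70 members (52.9%) and in 826 of the others (21.4%). No member had a top share that differed between the libraries after adjustment (0 of 70, two-sided Fisher's exact test with Benjamini-Hochberg adjustment), where 1.95% of the 3940 genes tested did, and 7 members had an unadjusted p under 0.05.

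The members with the most divided reads were Rpl31, Rps21, Rpl39, Rpl3l, Rps24, Rpsa, Rpl38, Rpl7, Rpl23 and Rps28. Rpl31 shared its reads among 4 known transcripts, with Rpl31-201 at 28.6% in replicate 2 and 33.3% in replicate 1 and Rpl31-203 at 29.6% in replicate 2 and 23.3% in replicate 1. Rpsa, also known as the laminin receptor precursor, had its top transcript at 56.5% in replicate 2 and 73.9% in replicate 1 (adjusted p = 0.479, Fisher's exact test). Rpl38 used Rpl38-204 for 68.3% of reads in replicate 2 and 64.6% in replicate 1, and Rpl38-201 for 28.4% in replicate 2 and 30.9% in replicate 1.

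Rps24, a small-subunit gene mutated in some patients with Diamond-Blackfan anaemia, is known for alternative splicing of its 3′ end. The gene occupies bases 24487125 to 24496959 of chromosome 14, plus strand (mm10, here and below). Its most used model was a new one of 6 exons and 585 bases, with 103 of 183 reads in replicate 2 (56.3%, interval 48.8 to 63.6) and 70 of 103 in replicate 1 (68.0%, 58.0 to 76.8). The exon before the last has 36 bases, from 24494052 to 24494087, and it joins the last exon at 24495775. The annotated transcript Rps24-205 starts an exon at the same base but ends it after 18 bases, at 24494069, and then includes an exon of 20 bases from 24495430 to 24495449. The pieces, shown because this exon sets the end of the reading frame, read as follows, with annotated stop codons in capitals.
End of the shared coding exon (chr14:24493482-24493493): gctggcaaaaag
Annotated exon of 18 bases (chr14:24494052-24494069): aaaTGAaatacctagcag
The 18 bases added in the new model (chr14:24494070-24494087): gtactgccattgggcacg
Annotated exon of 20 bases (chr14:24495430-24495449): TGAgtggagattggatacag
Start of the last exon (chr14:24495775-24495794): ccaaaggagtagatctgcgg
The added stretch begins with gt, and the 2 bases that follow it are also gt, so a donor dinucleotide follows both exon ends. The stop codon annotated for Rps24-205 ends at base 6 of the exon and lies in the new exon too. The added bases matched the 20-base exon at no more than 9 positions in any ungapped alignment.

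Counted over all Rps24 models, the 36-base exon was present in 172 of 183 reads in replicate 2 (94.0%, interval 89.5 to 97.0) and in 98 of 103 reads in replicate 1 (95.1%, 89.0 to 98.4). Models with neither small exon had 7 reads in replicate 2 and 1 in replicate 1, and those with the 18-base exon alone had 2 in replicate 2 and 3 in replicate 1. The 20-base exon alone had 1 read in replicate 2 and 0 in replicate 1. The intervals of the 2 libraries overlap, and the transcripts Rps24-202 and Rps24-205 had 0 reads in both. This count was added after the new model had been seen.

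**Figure D3:**
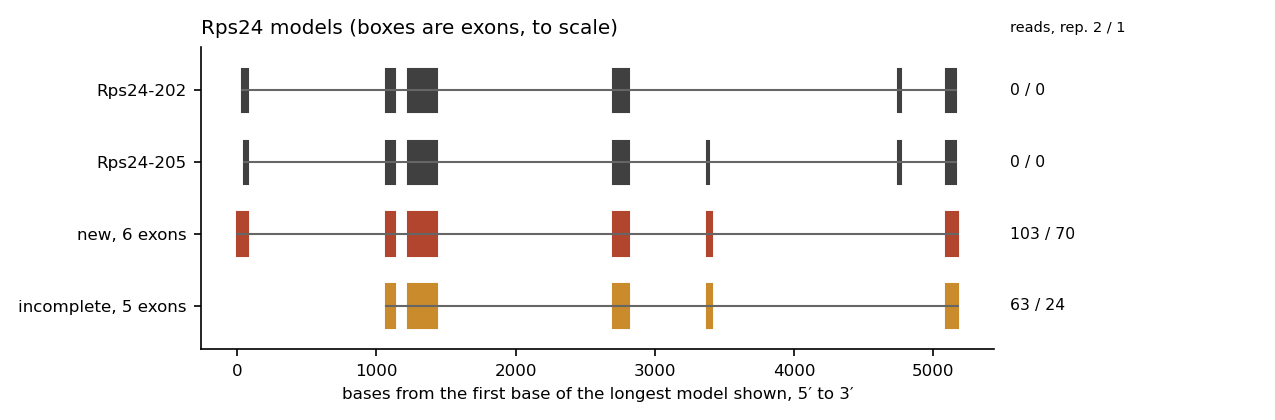
Exon maps of the main Rps24 models, to scale, in bases from the first base of the longest model shown, with the reads in replicate 2 and replicate 1 at the right. Grey models are annotated, the orange one incomplete and the red one new, and both models with reads share a small exon that neither annotated transcript shown holds in that form.

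Of 167 new spliced member models, 27 had reads in both libraries and 128 had 1 read in 1 library. After Rps24, the new model with most reads was one of Rplp2, with 13 reads in replicate 2 and 10 in replicate 1 and an acceptor 3 bases downstream of the annotated one. Another Rplp2 model, with 5 reads in replicate 2 and 4 in replicate 1, had a donor 19 bases upstream of the annotated one. New models of Rpl5, Rpl22 and Rpl3l each had a donor 4 bases downstream of an annotated one and 2 to 4 reads in each library. Rpl21 had 7 reads in replicate 2 and 4 in replicate 1 on a model of 7 exons, in which an exon starts 536 bases upstream of the nearest annotated acceptor. Another new model of Rps24, with 2 reads in each library, joined annotated sites in a new combination.

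Several ribosomal proteins have a paralog that can take the same place in the ribosome. Rpl3l, known from striated muscle, had 204 reads in replicate 2 and 172 in replicate 1, and Rpl3 had 206 in replicate 2 and 156 in replicate 1. Rpl3l thus made up 49.8% of the pair in replicate 2 (95% interval 44.8 to 54.7) and 52.4% in replicate 1 (46.9 to 58.0), and neither interval excludes equal parts. Rpl3l occupies bases 24727820 to 24736143 of chromosome 17, plus strand, and Rpl3 bases 80077791 to 80091868 of chromosome 15, minus strand. With known transcripts alone the mean share was 40.1%, and 24.5% of Rpl3l reads in replicate 2 and 27.3% in replicate 1 fell on an incomplete model of 9 exons. Near-identical copies of Rpl3 held 27.7% of joint reads in replicate 2 and 31.6% in replicate 1, and those of Rpl3l 0% in both.

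Rpl36al exceeded its partner, with 201 reads in replicate 2 and 118 in replicate 1, against 108 in replicate 2 and 62 in replicate 1 for Rpl36a. That is 65.0% of the pair in replicate 2 (59.4 to 70.4) and 65.6% in replicate 1 (58.1 to 72.5), copies left out. Near-identical copies of Rpl36a held 25% of joint reads in replicate 2 and 18.4% in replicate 1. Those of Rpl36al held 0% in replicate 2 and 0.84% in replicate 1. Rpl22l1 made up 44.3% of reads with Rpl22 in replicate 2 (37.4 to 51.5) and 50% in replicate 1 (41.2 to 58.8). Rpl7l1 made up 28.4% with Rpl7 in replicate 2 and 31.2% in replicate 1, and Rps27l 24.6% with Rps27 in replicate 2 and 22.7% in replicate 1. With known transcripts alone the mean share was 21.7% for Rpl7l1 and 53.9% for Rpl22l1, against 29.8% and 47.2% over all models. For Rpl36al and Rps27l it was 65.4% and 23.5%, against 65.3% and 23.6%. Near-identical copies of Rps27 held 21.4% of joint reads in replicate 2 and 21.1% in replicate 1, and those of Rps27l 0% in both. Rps4l, with 4 reads in replicate 2 and 8 in replicate 1, was 1.54% of reads with the X-linked Rps4x in replicate 2 and 4.65% in replicate 1. Rpl39l and Rpl10l, both known from testis, had 0 reads. The upper limit of the exact interval was 1.26% of the Rpl39 pair in replicate 2 and 2.25% in replicate 1. For the Rpl10 pair it reaches 23.2% in both libraries, so little can be said there. No pair differed between the libraries (6 pairs with reads on both genes, two-sided Fisher's exact test, adjusted p from 0.436 to 0.922).

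**Figure D4:**
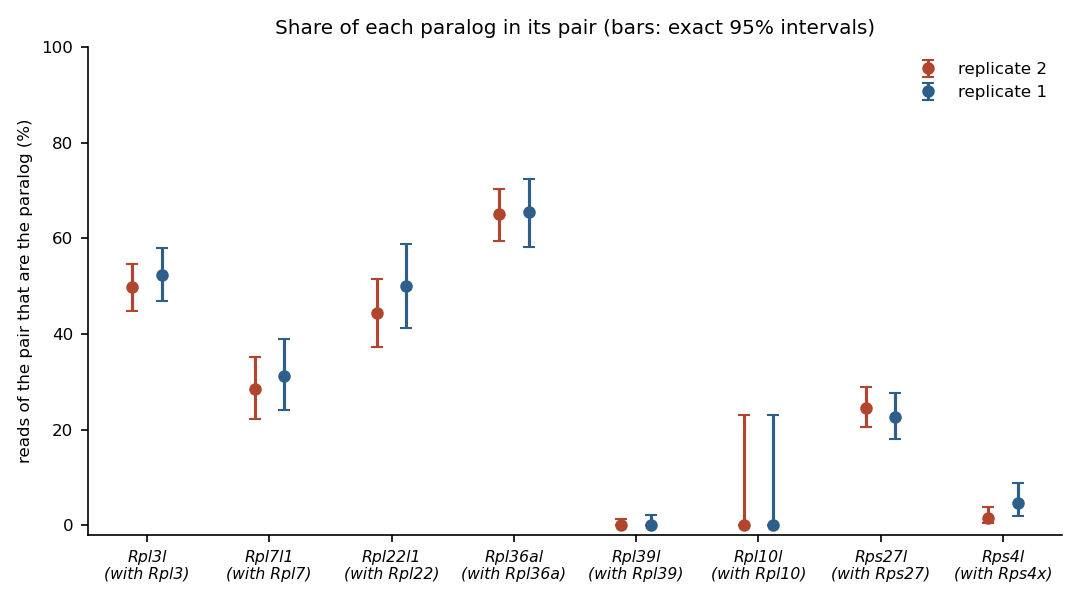
Reads of each paralog as a percent of the reads of its pair, in replicate 2 (left point of each pair) and replicate 1 (right point). Bars are exact 95% intervals for counting error. Rpl3l sits at 49.8% in replicate 2 and 52.4% in replicate 1, Rpl36al lies above 50%, and Rpl39l and Rpl10l are at 0.

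Between the libraries, 78 members had at least 10 reads in total and were tested, two-sided, with the exact binomial test, and p-values were adjusted (Benjamini-Hochberg) over all 8836 genes. Rplp0 was lower in replicate 2, with 582 reads there and 491 in replicate 1 (log2 ratio of replicate 2 over replicate 1 of -0.30, adjusted p = 0.0267). So 0 of 78 were called higher, where 1.36% of all genes tested were, and 1 was called lower, where 2.00% of all genes tested were, and the members' shares are near that background. Another 6 members had an unadjusted p under 0.05, of which Rpl35, Rpl39, Rpl5 and Rps28 were higher and Rpl4 and Rps3 lower in replicate 2. With Rplp0 that makes 7 of 78 members, where 1061 of all 8836 genes tested had such a p.

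The call of Rplp0 was lost with TMM scaling (-0.25, adjusted p = 0.112), with DESeq2 size factors (-0.20, adjusted p = 0.279) and with replicate 2 thinned to the depth of replicate 1 (-0.25, adjusted p = 0.202). With DESeq2 size factors Rpl35 and Rpl5 were called higher, as were 193 of all genes tested. Log2 ratios were computed on CPM plus 1. All but 1 of the 78 members lay within 2-fold, the exception being Rps4l with 4 reads in replicate 2 and 8 in replicate 1. The log2 ratio was above 0 in 48 members and below 0 in 30, and above 0 in 3956 and below 0 in 4880 of all genes tested. Its median over members was 0.05, against -0.06 over all genes tested.

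**Figure D5:**
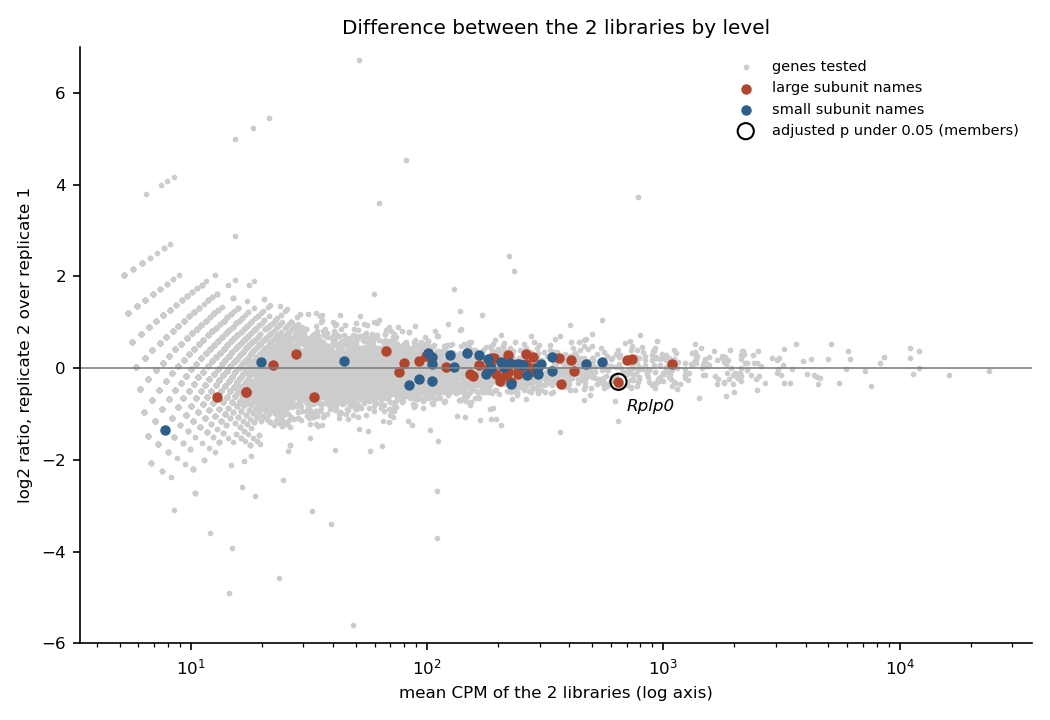
Log2 ratio of replicate 2 over replicate 1 against mean CPM (log axis), with genes tested in grey and the members in colour. Members spread around 0 between -1.34 and 0.38, and the ringed gene, Rplp0 at -0.30, is the only member with an adjusted p under 0.05.

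Member transcripts are short, with a median annotated length of 799 bases, and the ratio between libraries moved with length. Across the 79 members Spearman's rho of length with the log2 ratio was -0.36, and across 8290 other genes it was -0.05. The points share the same 2 libraries, and the values are descriptions. The 11 members under 500 bases had a median log2 ratio of 0.09, the 45 from 500 to under 1000 bases 0.09, and the 23 longer ones -0.01. Other genes of these lengths had medians of 0.14, 0.14 and -0.10. The level itself showed little relation to length across members (rho = -0.08 over 79 genes). Annotated length is a rough guide here, because reads are matched by introns: Rps27 is shortest at 345 bases, and Rps15a is longest at 5179 bases with 292 CPM.

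Small nucleolar RNA genes lay within 28 of the 79 members (35.4%), 55 in all, and within 184 of 13088 other protein-coding genes with reads (1.41%). Counted on known transcripts, host members had a median of 172 CPM and the others 187 CPM.

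Some proteins of the ribosome that fall outside the name rule had levels in the members' range. Fau, the ubiquitin-like fusion of eS30, averaged 167 ± 18.0 CPM, and Rack1, a signalling scaffold on the small subunit, averaged 64.3 ± 3.55 CPM (SD, n = 2). Rps3a1, added after its level was seen, had 290 CPM in replicate 2, against 271 CPM in replicate 1. By the exact binomial test none of these 3 was called between libraries, and 0 had an unadjusted p under 0.05.

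Genes that build ribosomes were much lower. The 28 biogenesis genes summed to 943 ± 52.0 CPM (SD, n = 2), led by Nop10 at 169 CPM, Ncl at 84.1 CPM and Sbds at 77.1 CPM. Of 27 tested, 0 were higher and 1 was lower in replicate 2: Pes1, a factor of large-subunit processing, with 5 reads in replicate 2 and 17 in replicate 1 (log2 ratio -2.10, adjusted p = 0.0246, exact binomial test). Over all genes tested 2.00% were called lower, so 1 of 27 is near that background. Among 16 translation factors and other messenger RNAs known for the same pyrimidine tract, Tpt1 (572 CPM), Eef2 (338 CPM) and Eef1g (233 CPM) were highest. Of the 11 with a promoter entry, 6 (54.5%) had such a tract within 10 bases of the annotated start and 3 exactly at it. None of the 16 was called by the exact binomial test. An unadjusted p under 0.05 was found for 3 of them, and for 1061 of all 8836 genes tested. The log2 ratio was above 0 in 2 of the 16, and in 3956 of all genes tested. Its median over the list was -0.14, against -0.06 over all genes tested.

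Of 16 regulators of ribosomal protein translation, 1 was called higher in replicate 2 and 0 lower, where 1.36% of all genes tested were called higher and 2.00% lower, so a single call says little of the list. Tsc1, which with Tsc2 restrains mTOR, had 226 reads in replicate 2 and 107 in replicate 1 (log2 ratio 0.53, adjusted p = 0.0442, exact binomial test). Akt1, a kinase upstream of mTOR, averaged 324 CPM and Rheb, the direct activator of mTOR, 165 CPM, and neither was called.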

How the data were processed

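Long-read RNA sequencing counts from 2 heart libraries were analysed. The files the authors deposited give raw read counts of each transcript model in whole numbers, with no normalization, and the exons of every model. Per the file headers and labels the build is mm10, known models are from GENCODE M21 and new ones carry TALON's name as source; aligner, filters and versions: not given in the sources used here. Assignment by the authors of a read to a model decides which of several near-identical genes gets it. Synthetic ERCC spike-in reads were left out. Other labelled spike-ins were not analysed here.

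Gene counts were summed over all models of an annotated gene. New models were matched between libraries by intron chain, or by overlap where they had 1 exon. Every gene with 10 or more reads summed over the libraries was compared by the exact binomial test against replicate 2's share of mouse reads, and top transcript shares by Fisher's exact test where each library had 20 or more reads (scipy 1.17.1), both with Benjamini-Hochberg adjustment at 0.05. edgeR 4.0.16 (TMM) and DESeq2 1.42.0 in R 4.3.3 gave alternative scalings only. With each library fitted as its own condition, their models have no residual degrees of freedom. Copies were found with blastn 2.17.0 on annotated transcripts. Tests were tested on simulated data. The scripts ran under Python 3.11.15 (pandas 2.3.3, numpy 2.4.6).

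The members and lists were chosen with earlier results of these data known. Named with values were called members, the 10 highest and 10 lowest by CPM, paralog pairs, the stalk genes, the 10 members with the smallest top transcript share, the 8 new spliced models with most reads in the lower library and, in other lists, called genes and the 3 highest. Other genes named, such as copies, members with many incomplete reads and those with a low unadjusted p, were chosen after their values were seen. Another gene matching the name rule is not reported here and is left out of the members' counts and sums, though it stayed in the tests over all genes.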

Additional observations from a re-analysis of the deposited data

How the results depend on the processing

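Calls were few and moved with the settings. No member was called higher with TMM scaling, minimums of 1 or 50 reads, known transcripts alone, overlapping names pooled, or replicate 2 thinned to the depth of replicate 1 (0 each, exact binomial test, 4 of 78 with an unadjusted p under 0.05 and a ratio above 0 in the reported setting). Over all genes these settings called from 74 to 158 higher. With DESeq2 size factors 2 members were called higher (Rpl35, Rpl5), with -ps copies added 1 (Rps19) and with near-identical copies added 2 (Rpl5, Rps19). Over all genes these 3 settings called 193, 121 and 123 higher, against 120 in the reported setting. Rplp0 was not called lower with TMM scaling, DESeq2 size factors or thinning (0 members each, and 134, 95 and 137 of all genes). With known transcripts alone, or a minimum of 50 reads, 2 members were called lower (Rpl4, Rplp0), of 76 and 71 tested, where 180 and 197 of all genes were. In the reported setting 177 of all 8836 genes tested were called lower. All settings but TMM and DESeq2 scaling can also change how many genes are tested. Their counts over all genes are therefore not shares of 8836. Whether members were called more often than other genes there was not tested. The median log2 ratio stayed above 0 under all settings tried, from 0.02 to 0.14. The summed level was 16166 CPM with known transcripts alone, 19467 CPM with -ps copies and 22183 CPM with near-identical copies. For the large subunit these were 10203, 12124 and 13848 CPM, and for the small subunit 5963, 7343 and 8336 CPM. Either library alone gave summed levels from 17375 to 17765 CPM. With models of at least 2 reads the known share was 92.8%, the incomplete share 5.42% and the new spliced share 1.01%. With known transcripts alone the mean share in the pair was 40.1% for Rpl3l, 21.7% for Rpl7l1 and 53.9% for Rpl22l1. The correlation of level with length was -0.21 with the longest annotated transcript. No member was called for a different top transcript share under any minimum tried. The copies and subunit alternatives were chosen after seeing the data. No paired analysis was possible because there is 1 group. Depth limits the lowest genes: Rpl17 and Rps4l had under 10 reads in each library.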
